A study of Mus musculus with 11 samples.

Results

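Heat shock proteins and their J-domain partners were followed at the RNA level in skin tumours of a mouse melanoma model. The genes were taken from the deposited count table by symbol: the Hsp families a, b, d, e, h and 90, the Dnaja, Dnajb and Dnajc genes, and Bag1 to Bag6. Of 78 matching symbols, Hspbap1 and the pseudogene Hspa9-ps1 were left out, which gave 76 genes of the 18756 in the table. They comprise 13 HSP70 genes, the HSP110 gene Hsph1, the exchange factor gene Hspbp1, 3 HSP90 genes, 8 small heat shock protein symbols, the 2 genes of the mitochondrial chaperonin, 42 J-domain genes (4 of class A, 12 of class B and 26 of class C) and 6 BAG genes. Enough counts for a test were found for 74 of them. The other two, Dnajb7 and Hspb3, had between 1 and 33 counts in all the libraries of a genotype.

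Molecular chaperones hold unfolded proteins and help them fold, move across membranes or be degraded. J-domain proteins bring clients to HSP70 and trigger its ATP hydrolysis, whereas BAG proteins, HSP110 and Hspbp1 release the nucleotide so that the client can leave. Heat shock factor 1 induces one set of these genes on proteotoxic stress, and the unfolded protein response induces another set that works in the endoplasmic reticulum.

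Total RNA was sequenced from 11 end-point tumours on a C57BL/6 background: 2 with GNA11 Q209L, 5 with GNA11 Q209L Bap1 KO, and 4 with BRAF V600E Bap1 KO. GNA11 Q209L is an activating change of a Gq-family G protein subunit, BRAF V600E an activating change of a kinase of the MAPK pathway, and Bap1 encodes a deubiquitinase that acts as a tumour suppressor in melanocytes. The labels give no age, sex, promoter or driver line, and they do not say whether tumours of a genotype came from separate animals. Titles of the GNA11 Q209L Bap1 KO replicates 1 and 2 share an identifier, so p-values measure the spread between tumours, which may in part be within an animal.

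Library totals ran from 18338082 to 81035135 counts, and 3 counts corresponded to 0.037 to 0.164 per 1000000 counts of the unscaled total. Levels of mouse genes are given as CPM, counts per 1000000 of the TMM-scaled library. The labelled knockout could not be read from the Bap1 count, which stood at 85.0 and 137 CPM in GNA11 Q209L, at 101 to 170 CPM with the Bap1 KO label beside it, and at 54.7 to 71.3 CPM in BRAF V600E Bap1 KO. Between the GNA11 Q209L genotypes its log2 fold change was 0.13 ± 0.28 (SE, edgeR adjusted p = 0.92), and between the Bap1 KO genotypes it was 1.00 ± 0.23 (adjusted p = 0.00811, higher with GNA11 Q209L). Which exons were deleted was not given in the sources used here. Human GNA11-Q209L sequence had 120 to 2807 counts in each library of the 2 GNA11 Q209L genotypes and 0 to 5 in the others. Per 1000000 counts of the unscaled total it was 20.8 and 109 in GNA11 Q209L and 6.53 to 16.4 in GNA11 Q209L Bap1 KO. The part of this difference in the values below was not tested. Human BRAF sequence had 43 to 81 counts in each BRAF V600E Bap1 KO library and at most 1 elsewhere. The inducible recombinase CreERT2 stood at 77.6 to 326 per 1000000 counts of the unscaled total in the libraries with GNA11 Q209L and at 0.185 to 32.2 in those with BRAF V600E. On the same scale, the transgene sequence hFLPe was at most 0.0388 in GNA11 Q209L. In GNA11 Q209L Bap1 KO it was 0.0515 in replicate 3 and 29.2 to 154 in the others. In BRAF V600E Bap1 KO it was 0.546 in replicate 3, which had the 32.2 of CreERT2, and 81.7 to 177 in the others. The part of these construct differences was not tested. Closing lines of the table give the Bap1 status of BRAF V600E Bap1 KO replicates 2 and 4 as NA, whereas its top lines give the same floxed status as for the other two. The 10 melanocyte markers summed to 68000 to 101000 CPM in the 7 libraries with GNA11 Q209L and to 51.1 to 657 CPM in BRAF V600E Bap1 KO, where no marker was at 0. In that genotype, replicate 4 held 175000 CPM of salivary gland markers and 6270 CPM of skeletal muscle markers, and replicate 3 held 13700 CPM of keratinocyte markers. In bulk tumours such as these, fewer cells of a type and less RNA per cell cannot be told apart.

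Setting GNA11 Q209L Bap1 KO beside BRAF V600E Bap1 KO contrasts the oncogenes under a shared Bap1 KO label. HSP70 and its exchange factors contributed Hspa4l, Hspa1b and Hsph1 to the genes higher in BRAF V600E Bap1 KO (8.52-fold, 4.59-fold and 3.46-fold in the means). The exchange factor gene Hspbp1 was higher in GNA11 Q209L Bap1 KO. J-domain genes went in both directions. Dnajc27, Dnajc18 and Dnajb11 were higher in GNA11 Q209L Bap1 KO (2.49-fold, 2.33-fold and 1.99-fold), and others, such as Dnajb4 and Dnajc21, in BRAF V600E Bap1 KO. In edgeR's quasi-likelihood test, 25 of the 74 genes passed an adjusted p of 0.05 (33.8%), beside 41.2% of all 17350 genes tested. Higher in GNA11 Q209L Bap1 KO were 9 (12.2%, beside 16.5% of all genes), and 16 were lower (21.6%, beside 24.7%). At an unadjusted p under 0.05 there were 35 (47.3%, beside 51.3% of all genes). The groups did not overlap for 21 of the 74 (28.4%, beside 31.8% of all genes), 10 of them higher (13.5%, beside 14.7%) and 11 lower (14.9%, beside 17.2%). The 49 genes not called had log2 fold changes between -2.85 (Dnajc6) and 0.76 (Bag3). The median log2 fold change was -0.04 over the 74 genes and -0.26 over all genes. DESeq2 called 32 of the 74 (43.2%, beside 46.7% of all genes) and limma voom 20 (27.0%, beside 35.2%).

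Scaling by library totals alone moved the median over all genes to -0.64 and the split of the calls to 6 higher and 23 lower. Over all genes it called 7471 of 17350, against 7146 under TMM scaling. Directions below are therefore those under TMM scaling, which sets them relative to most genes. The melanocyte markers, of which the BRAF V600E Bap1 KO tumours held at most 657 CPM, changed with this comparison, and the part of cell makeup in the differences was not tested. Without BRAF V600E Bap1 KO replicates 2 and 4, the libraries given NA for Bap1, 2 genes were higher and 8 lower. Calls over all genes fell as well, from 7146 of 17350 tested to 3571 of 16254. The calls of 8 genes held in each of the 20 alternatives run. Hspa4l, Hspa1b, Hspa12b, Dnajb4, Dnajc12 and Dnajc21 were lower in GNA11 Q209L Bap1 KO, and Dnajc18 and Dnajc27 were higher. For Dnajb4, Dnajc12 and Dnajc27 the GNA11 Q209L tumours did not lie with GNA11 Q209L Bap1 KO, as given below. Their identifiers in the table are ENSMUSG00000025757 (Hspa4l), ENSMUSG00000090877 (Hspa1b), ENSMUSG00000074793 (Hspa12b), ENSMUSG00000028035 (Dnajb4), ENSMUSG00000036764 (Dnajc12), ENSMUSG00000044224 (Dnajc21), ENSMUSG00000024350 (Dnajc18) and ENSMUSG00000020657 (Dnajc27).

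**Figure D1:**
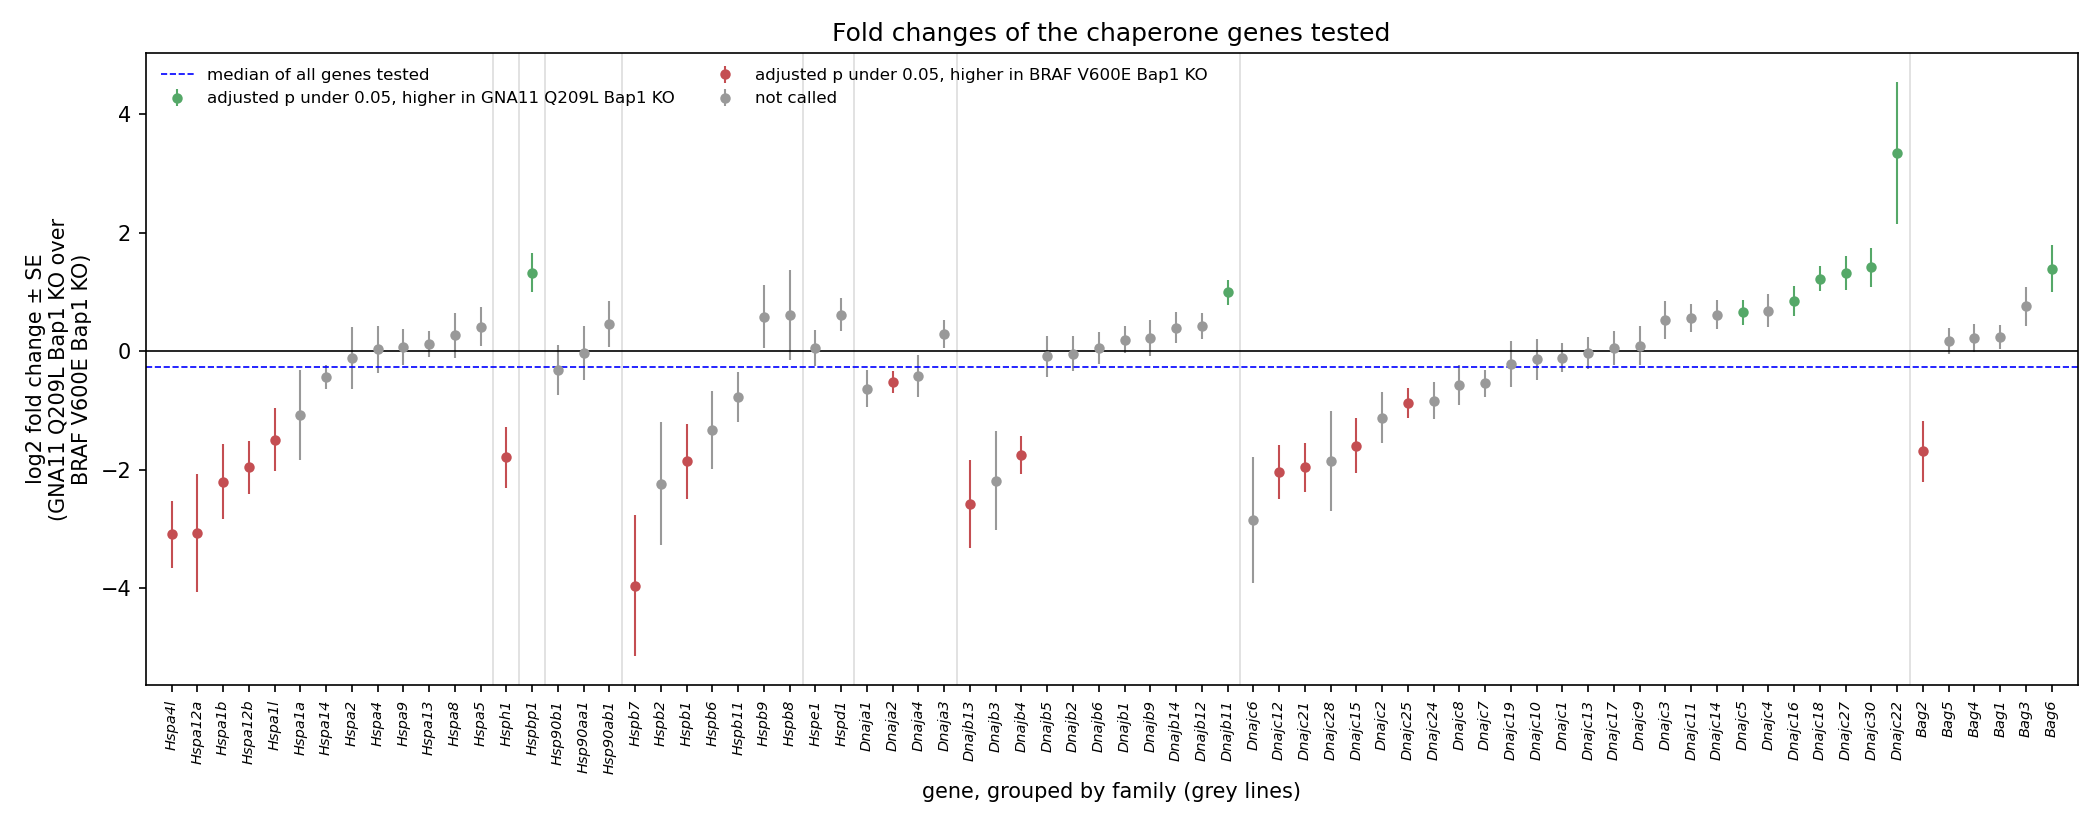
Log2 fold changes ± SE of GNA11 Q209L Bap1 KO over BRAF V600E Bap1 KO for the 74 chaperone genes tested, grouped by family and ordered within it. Green and red points passed an adjusted p of 0.05, and the dashed line marks the median of all genes tested (-0.26); all 5 HSP70 genes called lie below 0, and the class C J-domain genes called lie on both sides.

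Of the 14 heat-inducible targets of heat shock factor 1, 4 were lower in GNA11 Q209L Bap1 KO, none was higher and 10 did not pass, beside 24.7% of all genes lower and 16.5% higher. Their median log2 fold change was 0.02, beside -0.26 over all genes. Without the libraries given NA, 3 were lower. The 4 are Hspa1b, Hspa4l, Hsph1 and Hspb1.

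Hspa4l encodes an HSP110-type exchange factor for HSP70. It stood at 13.7, 5.97, 9.73, 17.6 and 7.34 CPM in GNA11 Q209L Bap1 KO and at 217, 77.2, 37.1 and 39.5 CPM in BRAF V600E Bap1 KO, a mean 8.52-fold higher in the latter. The groups did not overlap, and BRAF V600E Bap1 KO replicate 1 was the highest of its genotype. The log2 fold change was -3.09 ± 0.56 (SE, adjusted p = 0.00298), and without that replicate it was -2.24 (adjusted p = 0.00362) and the mean of the genotype was 51.2 in place of 92.6 CPM. GNA11 Q209L tumours had 21.2 and 13.1 CPM.

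Hsph1, the HSP110 gene and another exchange factor, stood at 19.1, 9.95, 35.4, 25.4 and 22.2 CPM in GNA11 Q209L Bap1 KO and at 170, 37.4, 42.5 and 59.5 CPM in BRAF V600E Bap1 KO. Again replicate 1 of BRAF V600E Bap1 KO was the highest by a wide margin, and the groups were narrowly apart. The log2 fold change of -1.79 ± 0.51 (adjusted p = 0.0191) became -1.06 without that replicate, with an adjusted p of 0.0588, so the call rested on it.

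Hspa1b encodes the classical heat-inducible HSP70. Its level was 2.98, 2.21, 16.6, 4.76 and 3.37 CPM in GNA11 Q209L Bap1 KO and 41.2, 10.6, 22.3 and 35.7 CPM in BRAF V600E Bap1 KO (log2 fold change -2.20 ± 0.62, adjusted p = 0.0187). The groups overlapped through GNA11 Q209L Bap1 KO replicate 3 alone, and without it the log2 fold change was -2.98 (adjusted p = 0.00271). Its near-identical neighbour Hspa1a followed the same libraries at lower levels, with 8.43 CPM in that replicate and 0.608 to 1.998 CPM in the other four, against 2.25 to 8.61 CPM in BRAF V600E Bap1 KO. It was not called (-1.07 ± 0.76, adjusted p = 0.271), and without replicate 3 it was (-2.18, adjusted p = 0.0161). By matching of GENCODE transcripts, 62.3% of the 50-base stretches of the Hspa1b transcript also occur in Hspa1a, so the split of reads between the pair is uncertain.

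The remaining heat-inducible genes include the most abundant chaperones and did not pass. Hsp90ab1, the constitutive cytosolic HSP90, stood at 1212 to 2582 CPM in GNA11 Q209L Bap1 KO, against 632 to 1899 CPM in BRAF V600E Bap1 KO (adjusted p = 0.36). Its inducible partner Hsp90aa1 had means of 34.6 ± 17.6 (SD, n = 5) and 35.3 ± 19.4 CPM (SD, n = 4), with an adjusted p of 0.965 in edgeR. Hspa8, the constitutive cytosolic HSP70, stood at 149 to 283 and 85.1 to 301 CPM (adjusted p = 0.589), and 74.8% of its transcript's 50-base stretches recur in other genes, 12 of those 13 genes being pseudogenes. Hsp90ab1, Hsp90aa1 and Hspa8 overlapped between the genotypes. For the Hsp90aa1 transcript, 58.5% of the 50-base stretches recur in other genes, all of them pseudogenes. Dnajb1, the J-domain partner induced with HSP70, had 46.0 to 68.2 and 37.3 to 57.0 CPM (adjusted p = 0.519). Dnaja1, a class A partner of HSP70, had 17.1 to 37.7 and 29.6 to 59.3 CPM (adjusted p = 0.12). Bag3, a BAG protein that pairs with small heat shock proteins in autophagy, had 136 to 249 and 71.1 to 197 CPM (0.76 ± 0.33, adjusted p = 0.089). It was called higher, at 1.15 with an adjusted p of 0.0114, once BRAF V600E Bap1 KO replicate 1 was left out, as was the chaperonin gene Hspd1 (0.95, adjusted p = 0.00885, against 0.61 and 0.0942 with it).

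**Figure D2:**
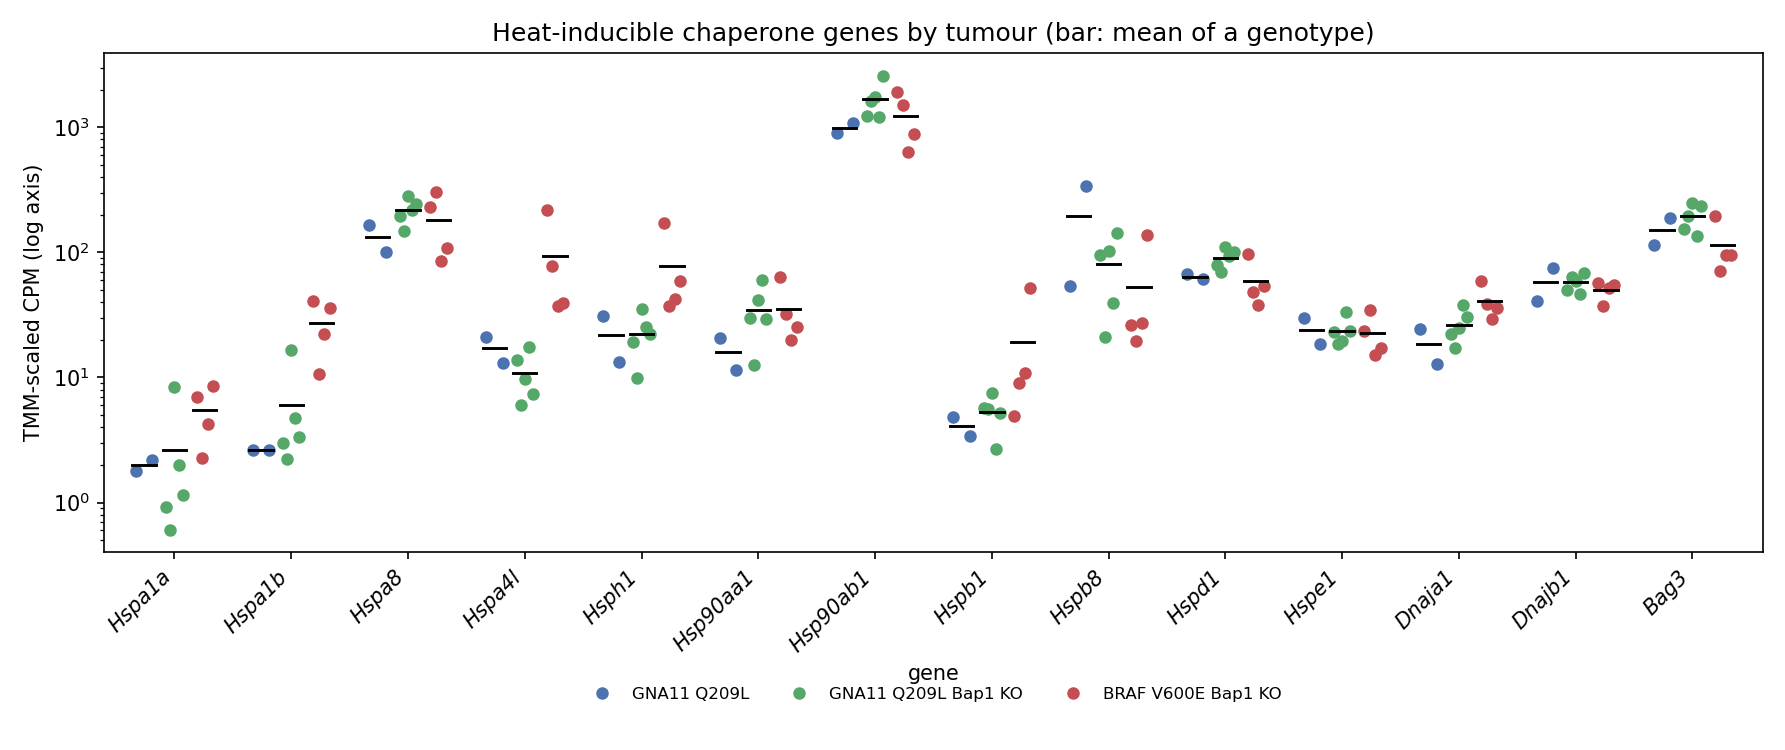
TMM-scaled CPM on a log axis for the 14 heat-inducible chaperone genes, one point per tumour and a bar at the mean of each genotype. Hspa4l, Hsph1 and Hspa1b are higher in the BRAF V600E Bap1 KO tumours, whereas Hsp90ab1, Hspa8 and Dnajb1 overlap between genotypes. BRAF V600E Bap1 KO replicate 1 lies far from its group for Hsph1, as does GNA11 Q209L Bap1 KO replicate 3 for Hspa1b.

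Of 5 heat shock factors and regulators tested, 1 was higher and 1 lower, and without the libraries given NA 1 was higher. Hsf1, the main activator, had means of 45.1 and 41.6 CPM in the GNA11 Q209L and BRAF V600E knockout-labelled genotypes (log2 fold change 0.12 ± 0.21, adjusted p = 0.673). Hsf2 was lower in GNA11 Q209L Bap1 KO, at 7.27 to 15.8 CPM against 20.6 to 31.1 CPM (-1.24 ± 0.31, adjusted p = 0.0112). Hsf4 was higher, at 37.3 to 99.8 CPM against 1.67 to 4.49 CPM (4.49 ± 0.47, adjusted p = 0.000251). Of the 10 immediate early genes, which respond to tissue handling as well as to MAPK signalling, 4 were lower in GNA11 Q209L Bap1 KO (Egr1, Egr2, Fosb and Junb) and none was higher (all genes: 24.7% and 16.5%); without the libraries given NA 2 were lower. Their part in the heat shock gene differences was not tested.

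Heat shock factor 1 binds repeats of the unit GAA in alternating orientation. An element of 3 units was searched, GAA, TTC and GAA with 2 bases of any kind (NN) between neighbours, on both strands (as TTC, GAA and TTC on the other) of the RefSeq promoter windows (GRCm38.p6, 250 bases before to 50 after a gene's start). Longer runs of units can give overlapping matches. The element was found in 4 of the 62 chaperone genes with a window (6.45%: Dnajb6, Hspd1, Hspe1 and Hsph1) and in 0.662% of all 27025 genes. The stretches of Hspe1, which shares its promoter with Hspd1 on the other strand, and of Dnajb6 are printed because they show the element in genes whose RNA did not pass the test. Capitals mark the matched letters, which in Hspe1 are 2 overlapping matches.
Hspe1, chr1:55088029-55088101, plus strand: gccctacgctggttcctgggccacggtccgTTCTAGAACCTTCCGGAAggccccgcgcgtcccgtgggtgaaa
Dnajb6, chr5:29735822-29735894, plus strand: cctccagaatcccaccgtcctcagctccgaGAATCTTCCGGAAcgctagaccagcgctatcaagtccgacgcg
Hspe1, the lid of the mitochondrial chaperonin, stood at 18.4 to 33.4 CPM in GNA11 Q209L Bap1 KO, against 15.0 to 34.5 CPM in BRAF V600E Bap1 KO (adjusted p = 0.889). Dnajb6, a suppressor of protein aggregation, stood at 9.28 to 16.0 and 8.74 to 14.6 CPM (adjusted p = 0.885). The Hsph1 match lies after the start site and is not printed. Of the other heat-inducible genes called, Hspa4l, Hspa1b and Hspb1 were not among the genes with a match. This does not show that their promoters lack the element. Only genes with a window were searched, elements that depart from these letters were not, and no match was tested as a binding site.

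Beyond the heat-inducible genes, 3 more HSP70 genes were lower in GNA11 Q209L Bap1 KO, so that 5 of the 13 HSP70 genes were lower and none higher, beside 24.7% and 16.5% of all genes. Their median log2 fold change was -0.44, beside -0.26 over all genes. Without the libraries given NA, 4 were lower. Hspa12b, a divergent HSP70 known from endothelial cells, stood at 10.7, 16.0, 10.7, 9.47 and 12.5 CPM in GNA11 Q209L Bap1 KO and at 105, 27.8, 31.4 and 20.5 CPM in BRAF V600E Bap1 KO. No tumour of one group reached the other, and replicate 1 of BRAF V600E Bap1 KO was again the highest. The log2 fold change was -1.96 ± 0.45 (adjusted p = 0.00757), and -1.17 (adjusted p = 0.00793) without that replicate. The 8 endothelial markers had a sum of 350 to 526 CPM in GNA11 Q209L Bap1 KO, against 125 to 325 CPM in BRAF V600E Bap1 KO, where no marker was at 0. The part of endothelial cells in the Hspa12b values was not tested.

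Hspa12a and Hspa1l fall outside the naming rule, because their groups overlap, and were singled out after their values were seen. Hspa12a stood at 2.48 and 5.99 CPM in BRAF V600E Bap1 KO replicates 1 and 2 and at 142 and 66.4 CPM in replicates 3 and 4, against 2.43 to 10.1 CPM in GNA11 Q209L Bap1 KO (-3.07 ± 0.99, adjusted p = 0.0308). The call was lost in 8 of the 20 alternatives, among them those without replicate 3 or replicate 4. Hspa1l, known from testis, was below 2 CPM in every tumour (-1.49 ± 0.54, adjusted p = 0.0458), and 71.4% of its transcript's 50-base stretches recur in an opposite-strand gene. Hspa9 and Hspa2 did not pass. Hspa9, the mitochondrial HSP70, stood at 186 to 288 CPM in GNA11 Q209L Bap1 KO, against 403, 176, 177 and 174 CPM in BRAF V600E Bap1 KO (adjusted p = 0.863). Hspa2, known from spermatogenesis, stood at 9.77 to 15.9 CPM and at 9.10, 3.03, 12.8 and 30.5 CPM (adjusted p = 0.868).

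Small heat shock proteins form oligomers that hold aggregating clients for HSP70 and are abundant in muscle. Of the 7 tested, 2 were lower in GNA11 Q209L Bap1 KO and none was higher (all genes: 24.7% and 16.5%), with a median log2 fold change of -1.33 beside -0.26. Both calls ended without the libraries given NA. Hspb1, the inducible HSP27, stood at 5.64, 5.64, 7.46, 2.66 and 5.22 CPM in GNA11 Q209L Bap1 KO and at 4.94, 9.09, 10.9 and 52.2 CPM in BRAF V600E Bap1 KO. A single tumour, BRAF V600E Bap1 KO replicate 4, stood out. The log2 fold change of -1.85 ± 0.63 (adjusted p = 0.0372) became -0.65 (adjusted p = 0.244) without it. The Hspb1 call was lost in 10 of the 20 alternatives, among them each that left out a GNA11 Q209L Bap1 KO tumour. Hspb7, known from heart and skeletal muscle and named after its values were seen, stood at 7.33, 8.24, 0.80 and 49.98 CPM in BRAF V600E Bap1 KO and at 0.207 to 3.84 CPM in GNA11 Q209L Bap1 KO (-3.96 ± 1.19, adjusted p = 0.0228). Its call was also lost without BRAF V600E Bap1 KO replicate 4 and without GNA11 Q209L Bap1 KO replicate 2 or 5. Summing the tumours that share an identifier ended it too.

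That tumour had 49.98 to 138 CPM of each of Hspb1, Hspb6, Hspb7 and Hspb8, beside 6270 CPM of the 12 skeletal muscle markers, which summed to 76.3, 228 and 14.1 CPM in replicates 1 to 3. In GNA11 Q209L Bap1 KO they summed to 99.3 CPM in replicate 3 and to 2.42 to 8.51 CPM in the other four, and replicate 3 also had the highest Hspb7 of that genotype (3.84 CPM). No muscle marker was at 0 in a whole genotype. The part of muscle RNA in these values was not tested. Hspb8, the partner of Bag3, was not called (0.61 ± 0.77, adjusted p = 0.54): it stood at 94.9, 20.9, 103, 39.2 and 144 CPM in GNA11 Q209L Bap1 KO and at 26.2, 19.4, 27.2 and 138 CPM in BRAF V600E Bap1 KO, and at 53.6 and 340 CPM in GNA11 Q209L.

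**Figure D3:**
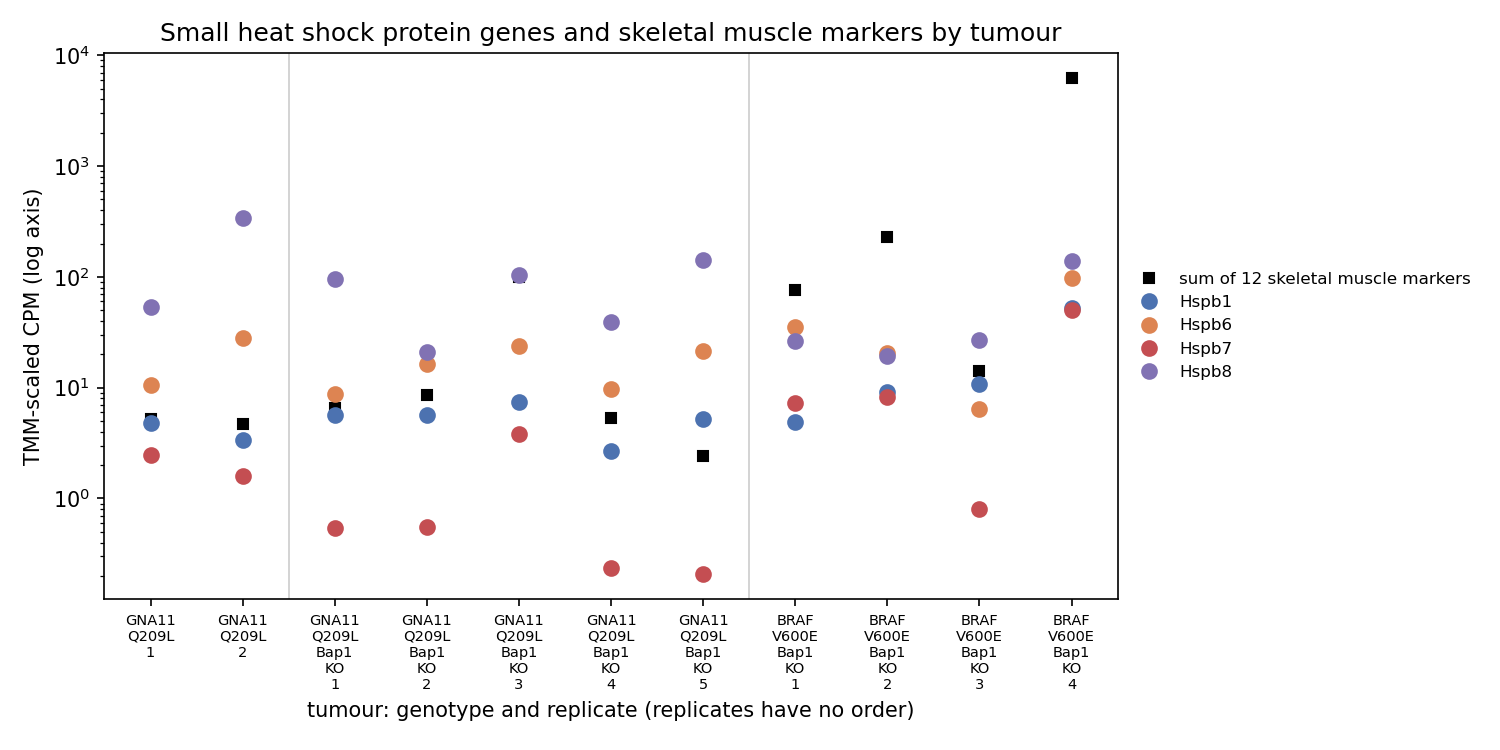
TMM-scaled CPM on a log axis for Hspb1, Hspb6, Hspb7 and Hspb8 and for the sum of 12 skeletal muscle markers in each of the 11 tumours. BRAF V600E Bap1 KO replicate 4 has the highest muscle sum (6270 CPM) and the highest Hspb1, Hspb6 and Hspb7, whereas Hspb8 is highest in GNA11 Q209L replicate 2 (340 CPM).

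In the endoplasmic reticulum, 3 of 13 chaperone genes were higher in GNA11 Q209L Bap1 KO, 1 was lower and 9 did not pass (all genes: 16.5% higher and 24.7% lower), with a median log2 fold change of 0.40 beside -0.26. Under library totals alone 2 were higher and the median was 0.02, and without the libraries given NA 1 was higher. Dnajc18, a J-domain protein of the reticulum membrane, stood at 60.9, 46.5, 70.7, 59.4 and 64.5 CPM in GNA11 Q209L Bap1 KO and at 19.8, 25.3, 30.1 and 28.5 CPM in BRAF V600E Bap1 KO. A gap lay between the groups that was wider than the range of the BRAF V600E Bap1 KO tumours, and the change was 1.22 ± 0.21 (adjusted p = 0.00247). With 78.4 and 53.0 CPM, the GNA11 Q209L tumours lay with the GNA11 Q209L Bap1 KO tumours.

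Dnajb11, a soluble J-domain partner of the reticulum HSP70, stood at 146, 187, 160, 177 and 172 CPM against 109, 60.5, 83.8 and 84.7 CPM (0.99 ± 0.21, adjusted p = 0.00596). Each tumour of GNA11 Q209L Bap1 KO was above each of BRAF V600E Bap1 KO, and the GNA11 Q209L tumours had 156 and 220 CPM. The call ended without the libraries given NA (0.79, adjusted p = 0.0696). Dnajc16 stood at 52.2, 74.5, 50.3, 48.0 and 60.0 CPM against 46.5, 26.5, 21.5 and 32.2 CPM (0.85 ± 0.25, adjusted p = 0.0213), and lost its call without either of BRAF V600E Bap1 KO replicates 2 and 3. Dnajc25 went the other way, at 8.56 to 10.2 CPM against 11.6 to 25.1 CPM (-0.87 ± 0.26, adjusted p = 0.0215). Its call was lost without BRAF V600E Bap1 KO replicate 1 and without any of GNA11 Q209L Bap1 KO replicates 2 to 5.

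Hspa5, Hsp90b1, Dnajc3 and Dnajb9, targets of the unfolded protein response, did not pass, whereas Dnajb11 of the same compartment did. Hspa5, the reticulum HSP70 that restrains the stress sensors, stood at 611, 522, 758, 1112 and 662 CPM in GNA11 Q209L Bap1 KO and at 877, 353, 439 and 539 CPM in BRAF V600E Bap1 KO (0.41 ± 0.33, adjusted p = 0.334). Hsp90b1, the reticulum HSP90, stood at 252, 134, 336, 626 and 231 CPM against 593, 259, 349 and 378 CPM (-0.32 ± 0.42, adjusted p = 0.556). Dnajc3, a J-domain protein that inhibits the kinase of the response, stood at 171, 100, 226, 326 and 209.1 CPM against 142, 106, 134 and 192 CPM (0.52 ± 0.33, adjusted p = 0.212). All 3 were highest in GNA11 Q209L Bap1 KO replicate 4 and lowest in replicate 2 of that genotype. Over the 74 genes, replicate 4 was the highest for 22 and replicate 2 the lowest for 40, and these counts were not made over all genes. Dnajb9, another target, had 26.6 to 60.4 CPM against 29.96 to 49.7 CPM (adjusted p = 0.563).

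Hspa5, Hsp90b1 and Dnajc3 are also the chaperone genes whose promoter window holds the endoplasmic reticulum stress element, CCAAT and CCACG with 9 bases of any kind between them (CGTGG, 9 bases and ATTGG in the reverse complement). Both strands were searched, and the element was found in 3 of 62 chaperone genes (4.84%) and in 0.137% of all genes. Their stretches from RefSeq (GRCm38.p6) are printed because these 3 genes hold it; capitals mark the match, which in the second Hsp90b1 stretch is the reverse complement.
Hspa5, chr2:34771995-34772073, plus strand: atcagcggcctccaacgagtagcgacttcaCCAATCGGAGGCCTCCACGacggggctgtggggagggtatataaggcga
Dnajc3, chr14:118937797-118937875, plus strand: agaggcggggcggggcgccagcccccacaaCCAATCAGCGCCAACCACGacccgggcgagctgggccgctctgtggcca
Hsp90b1, chr10:86705608-86705686, minus strand: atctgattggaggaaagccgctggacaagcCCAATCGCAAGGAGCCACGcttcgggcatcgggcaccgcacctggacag
Hsp90b1, chr10:86705503-86705581, minus strand: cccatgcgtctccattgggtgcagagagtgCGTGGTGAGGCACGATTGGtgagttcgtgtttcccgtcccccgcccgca
A match describes letters in a window and was not tested as a binding site.

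**Figure D4:**
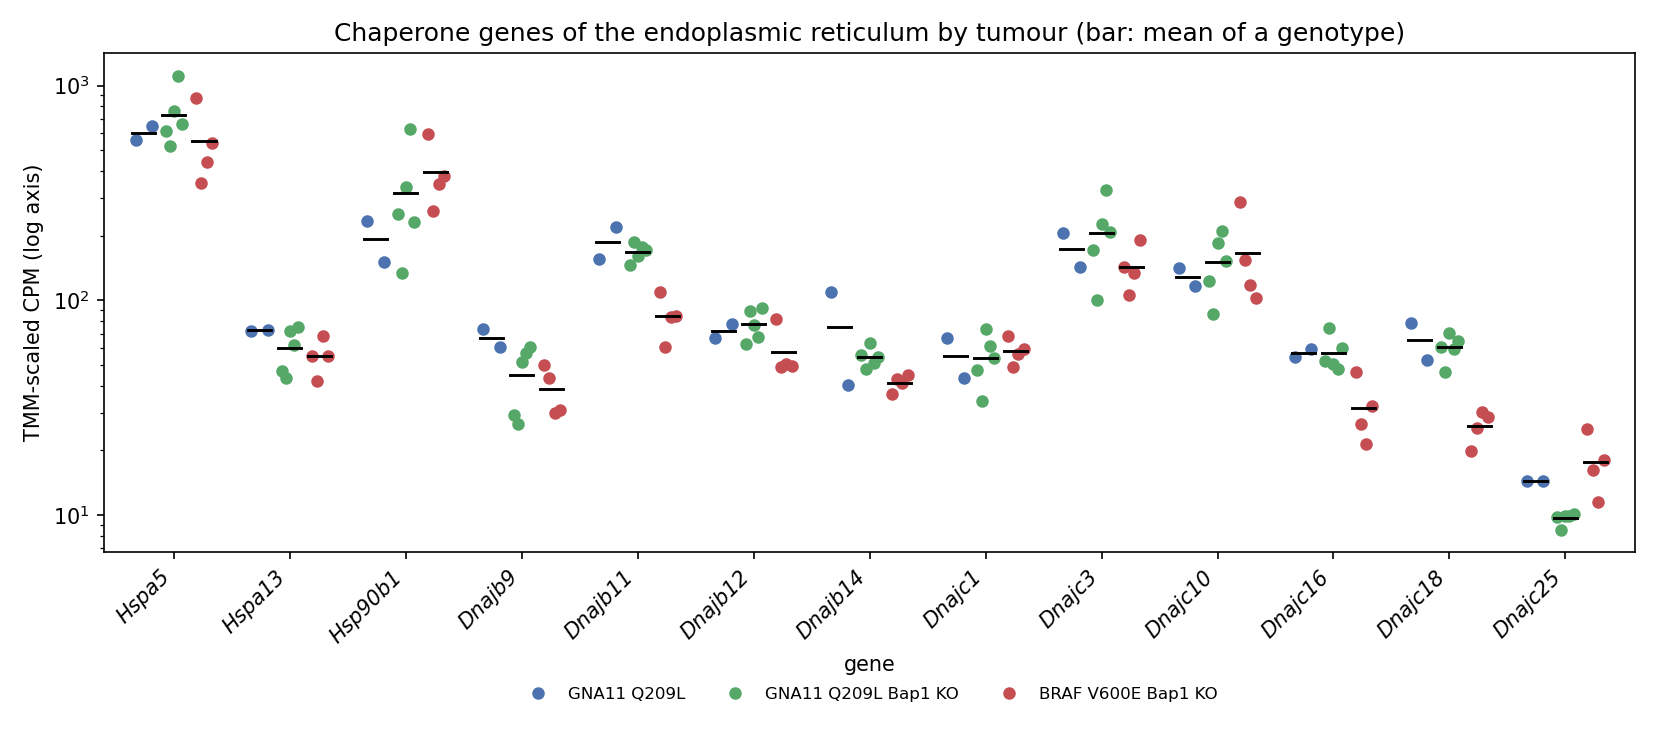
TMM-scaled CPM on a log axis for the 13 chaperone genes of the endoplasmic reticulum, one point per tumour and a bar at the mean of each genotype. Dnajb11, Dnajc16 and Dnajc18 separate the BRAF V600E Bap1 KO tumours from both GNA11 Q209L genotypes, and the points of Hspa5, Hsp90b1 and Dnajc3 overlap.

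Other genes of reticulum folding and the unfolded protein response gave 7 of 23 higher in GNA11 Q209L Bap1 KO and none lower (Calr, Ddit3, Edem1, Sdf2l1, Sil1, Syvn1 and Trib3), with a median of 0.26, where 16.5% of all genes were higher and 24.7% lower. Library totals alone gave 5 higher and 2 lower. Without the libraries given NA, 3 were higher. Sil1, the nucleotide exchange factor of Hspa5, stood at 58.0 to 136 CPM against 25.8 to 29.5 CPM (1.68 ± 0.29, adjusted p = 0.00227). Calr, the calcium-binding lectin chaperone, stood at 1472 to 2233 CPM against 332 to 658 CPM (1.88 ± 0.31, adjusted p = 0.00181). The transcription factors of the response, Xbp1 and Atf4, were not called (adjusted p of 0.997 and 0.166).

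In mitochondria, 1 of 9 chaperone genes was higher in GNA11 Q209L Bap1 KO and 1 lower (all genes: 16.5% and 24.7%), with a median of 0.07, and neither call held without the libraries given NA. Dnajc30, a J-domain protein linked to respiratory complexes, was higher, at 10.4, 21.8, 11.2, 9.09 and 13.9 CPM against 4.85, 3.85, 5.74 and 5.42 CPM (1.42 ± 0.33, adjusted p = 0.00831). The groups were apart, with GNA11 Q209L at 12.6 and 17.4 CPM. Exons of the opposite-strand gene Bud23 cover 26.2% of its exon length, so part of the count may be of that gene. Dnajc15, an inner membrane J-domain protein, was lower, at 5.10, 5.42, 3.68, 8.42 and 4.06 CPM against 11.6, 29.5, 8.63 and 14.6 CPM (-1.59 ± 0.47, adjusted p = 0.0217), and its call was lost without BRAF V600E Bap1 KO replicate 2 or GNA11 Q209L Bap1 KO replicate 5. Among 11 other mitochondrial folding genes, Clpb, Clpp, Lonp1 and Trap1 were higher and Clpx and Timm44 lower, and library totals alone gave 1 higher and 4 lower. Without the libraries given NA, 1 was higher.

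Among the remaining J-domain genes, Dnajc27, which joins a Rab-like GTPase to a J domain, was higher in GNA11 Q209L Bap1 KO, at 30.8, 24.7, 40.6, 49.9 and 41.2 CPM against 13.0, 11.7, 12.5 and 23.0 CPM (1.32 ± 0.29, adjusted p = 0.00647). BRAF V600E Bap1 KO replicate 4 alone came near the other group. The GNA11 Q209L tumours had 21.2 and 21.6 CPM, within the range of BRAF V600E Bap1 KO. Dnajc5, the cysteine string protein of vesicle release, was higher, at 213 to 266 CPM against 123 to 191 CPM (0.65 ± 0.20, adjusted p = 0.0272), and lost its call in 7 of the 20 alternatives. Dnajc22 had 0.19 to 1.16 CPM against a total of 7 counts over the 4 BRAF V600E Bap1 KO tumours (3.34 ± 1.20, adjusted p = 0.0451). Its call was lost in 12 of the 19 alternatives that tested it.

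The J-domain genes lower in GNA11 Q209L Bap1 KO were of several kinds. Dnajb4, a cytosolic partner of HSP70, stood at 9.17, 12.1, 19.8, 15.0 and 12.6 CPM against 76.9, 29.1, 42.0 and 36.5 CPM (-1.75 ± 0.32, adjusted p = 0.00306), and its groups did not overlap. The GNA11 Q209L tumours, at 25.3 and 25.7 CPM of Dnajb4, lay between these groups. Dnajc21, which acts in maturation of the large ribosomal subunit, stood at 11.1, 5.47, 8.81, 17.2 and 10.3 CPM against 71.3, 35.6, 26.6 and 30.7 CPM (-1.96 ± 0.41, adjusted p = 0.00526), with every BRAF V600E Bap1 KO tumour above every other tumour of the study. Dnajc12, a co-chaperone of aromatic amino acid hydroxylases, was low throughout, at 0.333 to 0.847 CPM against 2.12 to 2.90 CPM (-2.04 ± 0.46, adjusted p = 0.00691). The GNA11 Q209L tumours had 6.64 and 2.005 CPM of Dnajc12, a mean above that of BRAF V600E Bap1 KO. Dnaja2, a class A partner of HSP70, stood at 94.5 to 129 CPM against 136 to 197 CPM (-0.52 ± 0.19, adjusted p = 0.0472). That call was near the threshold and was lost in 14 of the 20 alternatives. Dnajb13, a component of sperm flagella named after its values were seen, reached 3.80 CPM in BRAF V600E Bap1 KO and 0.387 CPM in GNA11 Q209L Bap1 KO (-2.57 ± 0.74, adjusted p = 0.0197), and its call was lost without replicate 4.

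Exchange factors and co-chaperones of HSP70 went in both directions. Hspbp1 was higher in GNA11 Q209L Bap1 KO, at 47.2, 103, 62.4, 28.4 and 59.0 CPM against 24.2, 23.1, 26.1 and 22.5 CPM (1.33 ± 0.33, adjusted p = 0.011). The BRAF V600E Bap1 KO tumours lay close together, whereas the GNA11 Q209L Bap1 KO tumours spread widely. The Hspbp1 call ended without the libraries given NA (1.25, adjusted p = 0.0838). Of the 6 BAG genes, Bag6, which guides misfolded membrane proteins to degradation, was higher, at 249 to 708 CPM against 141 to 263 CPM (1.39 ± 0.40, adjusted p = 0.0189), and Bag2, an inhibitor of the ubiquitin ligase that acts with HSP70, was lower, at 3.65 to 9.46 CPM against 5.99 to 42.4 CPM (-1.69 ± 0.51, adjusted p = 0.0244). Both were named after their values were seen, since their groups overlap, and both calls ended without the libraries given NA. Bag1, an exchange factor with an anti-apoptotic role, had means of 144 ± 33.8 (SD, n = 5) and 122 ± 10.9 CPM (SD, n = 4), with an adjusted p of 0.363 in edgeR.

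A list of 21 co-chaperones, Hspbp1 among them, had 9 genes higher in GNA11 Q209L Bap1 KO and none lower, where 16.5% of all genes were higher and 24.7% lower. The median of the list was 0.14. Without the libraries given NA 2 were higher, and under library totals alone 7 were higher and 4 lower. The 9 include Fkbp4, an HSP90 immunophilin of steroid receptors, at 187 to 337 CPM against 65.2 to 132 CPM (1.44 ± 0.27, adjusted p = 0.00345). Cdc37, which loads kinases onto HSP90, stood at 244 to 432 CPM against 109 to 212 CPM (1.14 ± 0.27, adjusted p = 0.00888). Stub1, the HSP70-bound ubiquitin ligase, stood at 48.4 to 152 CPM against 25.7 to 49.2 CPM (1.43 ± 0.40, adjusted p = 0.017). Of the 8 tested genes of the cytosolic TRiC chaperonin Cct7 was higher, and of 5 prefoldin genes Pfdn2 was higher and Pfdn4 lower. Clu, an extracellular chaperone, was lower, at 2.76 to 12.8 CPM against 288, 153, 25.1 and 89.9 CPM (-3.86 ± 0.66, adjusted p = 0.00222), while the other two of its list, the alpha crystallins, did not pass.

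Within the oncogene GNA11 Q209L, tumours labelled Bap1 KO were set beside those without that label. No chaperone gene passed the threshold in edgeR (0 of 74, beside 0.0288% of all genes, 0.00576% higher and 0.0231% lower), nor in limma voom (0.0288% of all genes). No gene of the co-chaperone, reticulum, mitochondrial or other folding lists passed in edgeR. An unadjusted p under 0.05 was found for 8 of the 74 genes (10.8%, beside 11.4% of all genes). The groups did not overlap for 11 genes (14.9%, beside 16.6%), of which 4 stood above GNA11 Q209L (5.41%, beside 7.57%: Dnaja3, Dnajc27, Hsp90ab1 and Hspd1) and 7 below it (9.46%, beside 9.01%: Bag1, Dnajb4, Dnajb13, Dnajc6, Dnajc12, Dnajc22 and Dnajc25). Medians were -0.03 over the 74 genes and 0.00 over all genes. With 2 tumours on one side, the standard errors of single genes reached 1.33 on the log2 scale.

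DESeq2 called 2 chaperone genes in this comparison (2.70%, beside 2.55% of all genes), both lower in GNA11 Q209L Bap1 KO. Dnajc12 stood at 6.64 and 2.005 CPM in GNA11 Q209L and at 0.543, 0.608, 0.703, 0.333 and 0.847 CPM in GNA11 Q209L Bap1 KO. DESeq2 gave -2.79 (adjusted p = 0.000188) and edgeR -2.82 ± 0.52 (adjusted p = 0.109). Dnajc6, the auxilin that uncoats clathrin vesicles, stood at 14.9 and 4.37 CPM and at 0.326, 1.10, 0.649, 0.428 and 0.104 CPM (DESeq2 -4.17, adjusted p = 0.0297; edgeR -4.22 ± 1.20, adjusted p = 0.251). For both genes the 2 tumours of GNA11 Q209L differed from each other by over 3-fold while standing above all 5 of the other genotype.

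For the 14 heat-inducible genes the median was 0.39 on the log2 scale, with 10 of 14 above 0 and none called. Hsp90ab1 stood at 899.6 and 1087 CPM in GNA11 Q209L and at 1233, 1626, 1754, 1212 and 2582 CPM in GNA11 Q209L Bap1 KO (0.76 ± 0.50, adjusted p = 0.623). Hspd1, the barrel of the mitochondrial chaperonin, stood at 67.2 and 60.9 CPM and at 79.5, 69.0, 110, 94.1 and 101 CPM (0.50 ± 0.35, adjusted p = 0.646). Bag1 stood at 238 and 216 CPM and at 124, 112, 136, 147 and 200 CPM (-0.66 ± 0.24, adjusted p = 0.354). For these 3 genes the genotypes did not overlap, yet none of the differences passed. The sum of 10 cycling-cell markers was 59.4 and 94.9 CPM in GNA11 Q209L and 145 to 555 CPM in the Bap1 KO tumours. That of 8 fibroblast markers was 11300 and 2870 CPM against 370 to 2270 CPM, with no marker of either list at 0. Their part in the values above was not tested.

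GNA11 Q209L and BRAF V600E Bap1 KO differ in oncogene and in the Bap1 label together, and the comparison shares its tumours with both of those above. It had 8 of 74 chaperone genes called (10.8%, beside 15.2% of all genes), 6 higher in GNA11 Q209L (beside 9.27%) and 2 lower (beside 5.93%). The tumours did not overlap for 27 genes (36.5%, beside 41.9%), 11 higher (14.9%, beside 19.0%) and 16 lower (21.6%, beside 22.9%), and 20 had an unadjusted p under 0.05 (27.0%, beside 36.5%). The higher genes called were Bag1, Dnajb11, Dnajc18, Dnajc22, Dnajc30 and Hspbp1, and the lower ones were Dnajc21 and Hspa1b. Dnajc18 had the log2 fold change 1.34 ± 0.26 (adjusted p = 0.0115) and Dnajb11 1.15 ± 0.26 (adjusted p = 0.021). Bag1 stood at 238 and 216 CPM against 138, 117, 119 and 114 CPM (0.89 ± 0.25, adjusted p = 0.0405). Hspa1b stood at 2.62 and 2.63 CPM against 10.6 to 41.2 CPM (-3.39 ± 0.95, adjusted p = 0.04).

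No call held in every alternative here. Fitting the 2 genotypes alone left none, library totals alone gave 1 higher and 8 lower, and leaving out either GNA11 Q209L tumour gave 2 higher and none lower. DESeq2 called 19 of the 74 (25.7%, beside 31.3% of all genes) and limma voom 10 (13.5%, beside 15.0%). Without the libraries given NA, Dnajc18 was the higher gene that kept its call (adjusted p = 0.0499). Calls over all genes also fell, from 2637 of 17350 tested to 838 of 16254 without those libraries. With the 2 genotypes alone they were 417 of 17015.

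Per kilobase of exon, Hsp90ab1 had the highest mean level of the chaperone genes in GNA11 Q209L Bap1 KO, at 560 CPM per kilobase, followed by Hspa5 (173), Bag1 (106), Hsp90b1 (78.3) and Bag3 (75.5). Exon lengths are those of GENCODE M21 and may differ from the annotation behind the counts. Within a genotype, the median coefficient of variation of a chaperone gene was 31.3% over the 5 GNA11 Q209L Bap1 KO tumours and 36.6% over the 4 BRAF V600E Bap1 KO tumours. BRAF V600E Bap1 KO replicate 1, also the most deeply sequenced library, was the highest of its genotype for 36 of the 74 genes. The same count was not made over all genes, so it cannot be read as a trait of the chaperone genes.

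How far a count can be assigned to 1 gene also differed. At least 10% of the 50-base stretches of the transcript recurred in another gene for 20 of the 76 genes, and at least 50% for 7: Hspa8, Hspa1l, Hspa1a, Hspa1b, Hsp90aa1, Dnaja4 and Hspb1. Exons of a gene on the opposite strand overlapped those of 25 members. Whether reads with several matches were counted, and whether strand was used, remains unstated in those sources, so levels of these genes are uncertain.

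**Figure D5:**
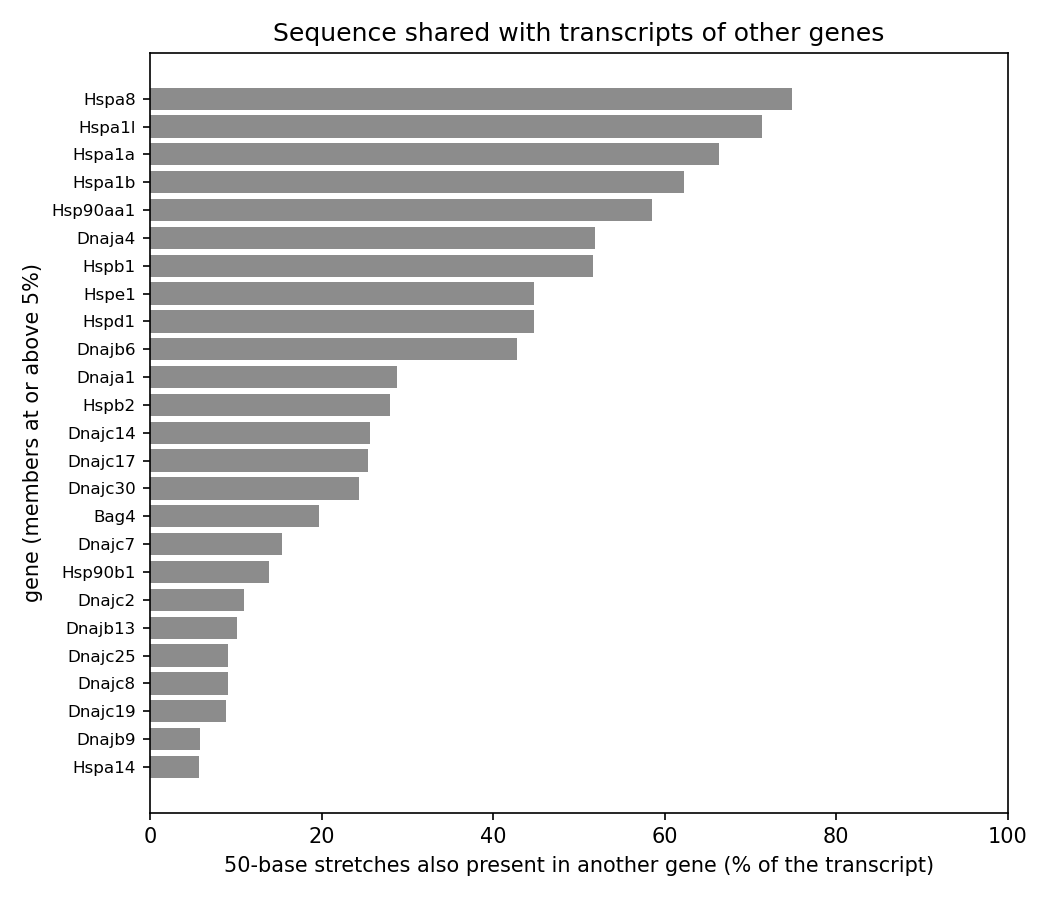
Share of the 50-base stretches of each gene's longest coding transcript that also occur in a transcript of another gene, for the chaperone genes at or above 5%. Hspa8 is at 74.8% and 7 genes are above 50%, among them the heat-inducible Hspa1a and Hspa1b.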

How the data were processed

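RNA sequencing of 11 tumours was analysed from a table of estimated counts per gene, which the authors deposited without normalisation and whose gene values are whole numbers. STAR and the build mm9 are named in the submitters' processing notes; the aligner's version, the counting program, the annotation, the use of strand and the treatment of multiply matching reads were not given in the sources used here. Quality lines and the 6 transgene sequences entered neither library sizes nor tests, 7 identical repeated lines were dropped, and no per-sample column was left unused. Counts were fitted with edgeR 4.0.16 (R 4.3.3) in 1 quasi-likelihood model of all 11 libraries, with TMM scaling, the default low-count filter by group (17350 genes kept, common dispersion 0.419, prior degrees of freedom 2.82) and two-sided p-values adjusted by Benjamini-Hochberg over all genes tested. The SE is the log2 fold change over the root of its F statistic. CPM of genes are TMM-scaled; floors and transgene levels use unscaled totals, and floors cover counting error only. Scripts were tested on simulated data.

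Alternatives were other scalings, no filter, DESeq2 1.42.0, limma 3.58.1 voom, the 2 genotypes alone, summing the tumours that share an identifier, leaving out each library, and, chosen after seeing the data, leaving out the 2 libraries given NA for Bap1. Named were 21 key genes whatever their p, every gene called between the GNA11 Q209L genotypes, and in the other comparisons up to 10 per direction with the smallest p and groups that do not overlap. The members, lists and rules were chosen with earlier results of these data known. Sequence sharing and exon lengths were computed from GENCODE M21 (GRCm38), and promoter windows are RefSeq's (GRCm38.p6). No mm9 annotation was used, so gene positions in that build are not given. Positions of the printed promoter stretches are those of GRCm38.p6.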

Additional observations from a re-analysis of the deposited data

Results flagged for a closer look

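A value far from the others of its genotype (Dixon's test at the 95% level, which flags about 1 in 20 groups by chance) was found in 9 of the 74 groups checked, all of named chaperone genes. BRAF V600E Bap1 KO replicate 1 was far above the nearest tumour for Hspa9 (402.9 against 176.7 CPM), Hspa12b (104.8 against 31.43 CPM) and Hsph1 (170.3 against 59.46 CPM). Replicate 4 of that genotype was far above for Hspb1 (52.25 against 10.86 CPM), Hspb8 (137.9 against 27.18 CPM) and Dnajc27 (22.98 against 12.99 CPM). In GNA11 Q209L Bap1 KO, replicate 3 was far above for Hspa1a (8.434 against 1.998 CPM) and Hspa1b (16.6 against 4.758 CPM), and replicate 2 was far below for Dnajc25 (8.565 against 9.766 CPM). Hspa1a and Hspa1b share much of their sequence and are not separate evidence.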

How the results depend on the processing

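No paired analysis was possible because the labels carry no replicate numbers. Of 1678 recomputed fold changes, 104 lost their call, 9 gained one and the others kept their side of the threshold; 73 changed sign, none of them a called one, and in 21 of these the value moved by more than the spread. Between the Bap1 KO genotypes, 9 genes were higher and 16 lower; summing the tumours that share an identifier gave 9 lower, and leaving out the libraries given NA gave 2 higher and 8 lower. Leaving out 1 library gave 6 to 13 higher and 8 to 16 lower, with 10 lower without GNA11 Q209L Bap1 KO replicate 2 or BRAF V600E Bap1 KO replicate 4 and 8 lower without GNA11 Q209L Bap1 KO replicate 5. Within GNA11 Q209L, DESeq2 gave 2 lower with Bap1 KO in place of 0. Between GNA11 Q209L and BRAF V600E Bap1 KO, with 6 higher and 2 lower, the 2 genotypes alone gave 0 and 0, library totals alone 1 and 8, leaving out the libraries given NA 1 and 1, and DESeq2 12 lower; leaving out 1 library gave 2 to 7 higher and 0 to 3 lower, the lowest being 2 and 0 without GNA11 Q209L replicate 1 or 2, with 3 higher without BRAF V600E Bap1 KO replicate 2 and 1 lower without its replicate 1. Fewer samples enter these fits, and the cause of the other shifts was not tested. Between the Bap1 KO genotypes, calls over all genes fell from 7146 of 17350 tested to 3571 of 16254 without the libraries given NA. With 2 GNA11 Q209L tumours, a comparison that misses the threshold does not show that levels are alike. Genes such as Dnajb13 and Dnajc22 rest on few counts.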
